A study of Papio with 24 samples.

Results

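The genes described here encode subunits of the mitochondrial respiratory chain and of ATP synthase. They were chosen by symbol alone: every gene whose single-symbol probe begins with NDUFA, NDUFB, NDUFC, NDUFS or NDUFV (complex I), SDHA to SDHD (complex II), UQCR (complex III), COX4 to COX8 (complex IV) or ATP5 (complex V). The rule found 86 genes on the array, and 67 of them were detected at a detection p under 0.05 on at least 4 of the 24 arrays and were tested, against 10225 tested genes of 18852 in all. Each gene was read from 1 probe, the one with the highest mean over the 24 arrays. The prefixes also take in assembly factors of complex I (NDUFAF1 to NDUFAF7), the inhibitor ATP5IF1, and the probes named UQCRBP1, UQCRHL and ATP5F1EP2, which in human are copies of UQCRB, UQCRH and ATP5F1E. Which transcript of such a pair a probe reads was not resolved, so the values of the copies are uncertain as to gene.

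Complexes I and II pass electrons from NADH and succinate to ubiquinone, complex III passes them to cytochrome c, and complex IV passes them to oxygen. Complexes I, III and IV pump protons out of the mitochondrial matrix, and ATP synthase, complex V, lets them back in to make ATP. Cultured fat-cell precursors carry fewer mitochondria than mature adipocytes, and mitochondrial content is known to increase as they differentiate. Several small subunits exist as alternative isoforms whose use depends on tissue or oxygen, such as COX4I1 and COX4I2, or COX7A1, the form of striated muscle and brown fat.

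The study measured stromal precursor cells grown from 3 fat depots of 8 baboon fetuses (Papio), taken at day 165 of a gestation of 184 days. In 4 fetuses, called control, the mother ate freely, and in the other 4, called restricted, the mother's food was reduced by 30% for the whole of pregnancy; each group held 1 male. From every fetus, cells were released with collagenase from omental, subcutaneous abdominal and subcutaneous femoral fat, grown in 10% serum, frozen, thawed and regrown to confluence, and the RNA of triplicate wells was pooled onto 1 array, which gives 4 arrays for each depot and diet. Fetuses keep the names of the sample titles, such as control_9017 and restricted_2820. The replicate is therefore the fetus, and the cells are confluent passaged cultures, not tissue. In bulk cultures such as these, fewer cells of a type and less RNA per cell cannot be told apart.

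The probes were designed on human sequence and baboon RNA was hybridised, so levels are compared between arrays for 1 probe and never between probes. Between 13102 and 14994 of 48803 probes were detected per array, and the mean intensity ran from 148 to 211. Of 10 stromal markers 9 were detected on some array (THY1 was not), as were 4 of 6 adipocyte markers, without LPL and PLIN1, and 2 of 6 brown fat markers, without UCP1, CIDEA, ELOVL3 and PPARGC1A. Of 8 mesothelial markers 5 were detected. The mean level of the 8 was 5.87 to 7.27 in omental cells, 4.81 to 6.02 in abdominal cells and 4.55 to 5.18 in femoral cells on the log2 scale. Such marker means were taken before the log, over all genes of a list on the array, detected or not. Arrays of 1 fetus deviated together from their group means, with a correlation of 0.28 to 0.673 over the 24 pairs of depots.

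Of the 67 tested members, 61 were detected on all 24 arrays. NDUFB1 was detected on 19 arrays, NDUFB10 on 17, NDUFA10 on 12 and SDHD on 21. The low-oxygen and lung isoform COX4I2 was detected on 5 arrays and the small membrane subunit ATP5MK on 4, so the values of these last 2 are mostly bounds set by the background. ATP5MK was detected on 1 omental and 3 femoral arrays of restricted fetuses and on 0 arrays of each control group. It thus passed the filter only through restricted fetuses, and its diet values and the counts that include it carry that choice. The tested members numbered 33 of 40 for complex I, 3 of 3 for complex II, 5 of 9 for complex III, 10 of 16 for complex IV and 16 of 18 for complex V. The 19 members below the filter were detected on at most 2 arrays each. They were NDUFA5, NDUFC1, NDUFC2, NDUFS1, NDUFS3, NDUFS5 and NDUFS6 of complex I, UQCRB, UQCRC2, UQCRQ and UQCR11 of complex III, COX6A2, COX6B2, COX7A2, COX7B2, COX8A and COX8C of complex IV, and ATP5MC3 and ATP5MJ of complex V. Several of these encode obligate subunits, so a probe below background here says nothing of the gene in these cells. COX6A2 and COX6B2, the muscle and testis isoforms, were below the filter while COX6A1 and COX6B1 were detected on all 24 arrays. For subunit 7A the probe of the muscle isoform COX7A1 was detected on all 24 arrays and that of the ubiquitous COX7A2 was below the filter. As isoforms are read by different probes, these detections do not show which isoform the cells use.

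**Figure D1:**
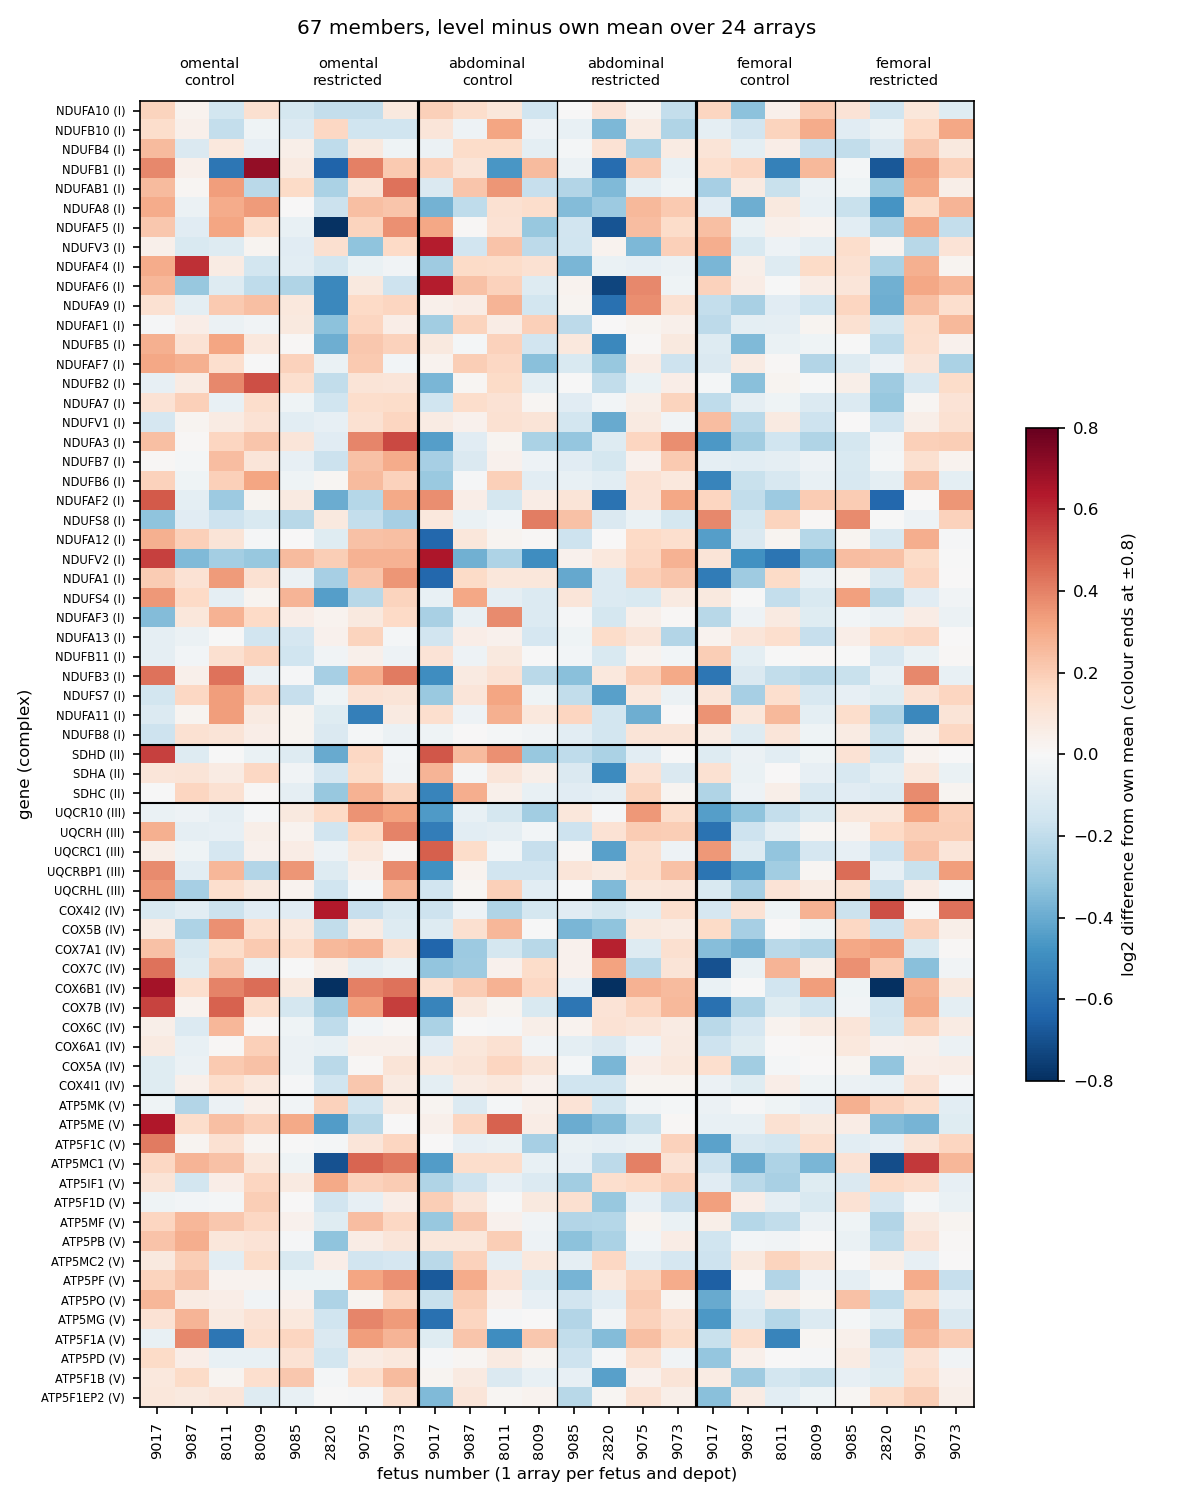
Level of each of the 67 tested members (rows, grouped by complex) on each of the 24 arrays (columns, by depot, diet and fetus), as the log2 difference from the member's own mean over the 24 arrays; the colour scale ends at 0.8 in either direction. In the 3 columns of fetus restricted_2820, 49 to 53 of 67 members lie below their own mean.

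The members' variation was divided between fetuses and depots. Over the 24 arrays the median share of a member's variance that lay between fetuses was 51.5%, and the share between depots was 6.94%, against 41.7% and 9.12% for all 16933 tested probes. Equal noise on each array would give 30.4% and 8.7%, from 7 and 2 of 23 degrees of freedom, and the fetus share includes diet. The fetus share was highest for NDUFB1 (92.5%), COX6B1 (91.9%), ATP5F1A (90.6%), NDUFAF2 (89.3%) and NDUFV2 (86.5%), and the depot share was highest for ATP5MF (37.8%) and NDUFS8 (35.3%). The members with the largest SD over the 24 arrays were COX6B1 (0.583), NDUFB1 (0.381), ATP5MC1 (0.348), NDUFV2 (0.342), COX7B (0.321) and NDUFAF6 (0.304), against a member median of 0.196 and 0.183 for all probes.

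For 9 of 67 members (13.4%) all 3 arrays of 1 fetus lay below the other 21, a pattern of all 3 arrays above or below that 8.75% of all probes showed; no member had all 3 arrays above. COX6B1, the subunit of complex IV that faces the intermembrane space, read 8.48 in omental, 8.74 in abdominal and 8.69 in femoral cells of fetus restricted_2820. On the other 21 arrays it lay between 9.90 and 10.72, so the gap of 1.16 to the nearest array was wider than the whole range of the others. NDUFA9 and the assembly factors NDUFAF2 and NDUFAF6 were also lowest in fetus restricted_2820, by gaps of 0.09 to 0.13. NDUFB1, also lowest in this fetus, was detected on 0 of its 3 arrays, so its rank there is that of background values, and 8 of the 9 members were detected on all arrays of the fetus set apart. ATP5F1A, the alpha subunit of the catalytic head, read 12.06 to 12.14 in the fetus control_8011 and 12.29 to 13.02 elsewhere. NDUFA11 read 11.49 to 11.65 in the fetus restricted_9075 and 11.8 to 12.4 elsewhere, NDUFV3 was also lowest in fetus restricted_9075, and NDUFAF3 was lowest in the fetus control_9017. Whether such a level reflects a sequence difference under the human probe was not tested. Over all 67 members, the median deviation from the member's own mean was -0.15, -0.14 and -0.12 in the omental, abdominal and femoral cells of fetus restricted_2820. In fetus control_9017 it was 0.16 in omental cells and -0.11 in both subcutaneous depots, so this fetus stood high in 1 depot and low in the other 2.

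No member passed an adjusted p of 0.05 in any of the 4 tests of maternal diet, which were made in each depot and over the means of the 3 arrays of each fetus. The share of all tested probes that passed was 0% in omental, abdominal and femoral cells and 0.00591% over the fetus means. At an unadjusted p under 0.05 the members higher and lower in restricted fetuses were 1 and 1 in omental cells, 3 and 1 in abdominal cells, 6 and 0 in femoral cells, and 5 and 1 over fetus means. Of all probes, 2.16% were higher and 2.59% lower at that p in omental cells, 2.06% and 2.81% in abdominal cells, 2.75% and 3.45% in femoral cells, and 2.62% and 3.59% over fetus means. Members whose diet groups did not overlap, higher and lower, numbered 1 and 0 in omental cells (1.26% and 1.56% of all probes), 3 and 2 in abdominal cells (1.37% and 1.77%), 4 and 0 in femoral cells (1.68% and 2.2%), and 3 and 1 over fetus means (1.46% and 2.13%). The smallest adjusted p of any member was 0.588, for UQCR10 in femoral cells.

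Counts of members by direction are descriptions, since members vary together. In omental cells 22 of 67 members were higher in restricted fetuses, with a median difference of -0.0702, against 47.7% of all probes and a median of -0.0074. In abdominal cells 27 of 67 were higher, with a median of -0.0336, against 48% and -0.00659. In femoral cells 54 of 67 were higher, with a median of 0.0774, against 49.2% and -0.00277. The 54 include ATP5MK, which passed the detection filter only through restricted fetuses. Over fetus means 30 of 67 were higher, with a median of -0.0123, against 48.1% and -0.00471. The member median of an array or fetus varied within a diet group with an SD of 0.105 in omental, 0.102 in abdominal and 0.0798 in femoral cells and 0.0862 over fetus means. These SDs are of single arrays or fetuses, while the differences compare means of 4, which vary less. They are therefore not the error of the 4 medians, and whether those differ from 0 was not tested. Leaving out fetus restricted_2820 turned the abdominal median to 0.0262 and that over fetus means to 0.0492, and moved the omental one to -0.0175 and the femoral one to 0.137. The femoral direction was the same in every fit that left out 1 fetus, with 46 to 58 of 67 members higher. With arrays scaled by their medians instead of their quantiles, 6, 17, 47 and 16 of 67 members were higher in omental, abdominal and femoral cells and over fetus means, while the medians of all probes became -0.0689, -0.053, -0.0205 and -0.0426. Markers of other cells also stood at different levels by diet. The mean of the mesothelial markers lay at 4.81 to 5.16 in abdominal control and 5.27 to 6.02 in abdominal restricted cells. It lay at 4.55 to 4.79 and 4.68 to 5.18 in femoral cells, and at 6.47 to 6.91 and 5.87 to 7.27 in omental cells. MSLN, KRT8 and KRT18 were detected on no array. The mean of the brown or beige adipocyte markers lay at 5.11 to 5.38 in abdominal control and 5.43 to 5.81 in abdominal restricted cells, without overlap. In femoral cells it lay at 5.32 to 5.42 and 5.39 to 5.72, and in omental cells at 5.39 to 5.57 and 5.53 to 5.61. Of these markers 2 of 6 were detected, and 1 of the 2 was COX7A1, itself a member, detected on all 24 arrays. This mean is therefore not a reading separate from the members. In femoral cells 0 of 9 stromal markers were higher in restricted fetuses, with a median of -0.176. The part of these cells in the members' differences was not tested.

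**Figure D2:**
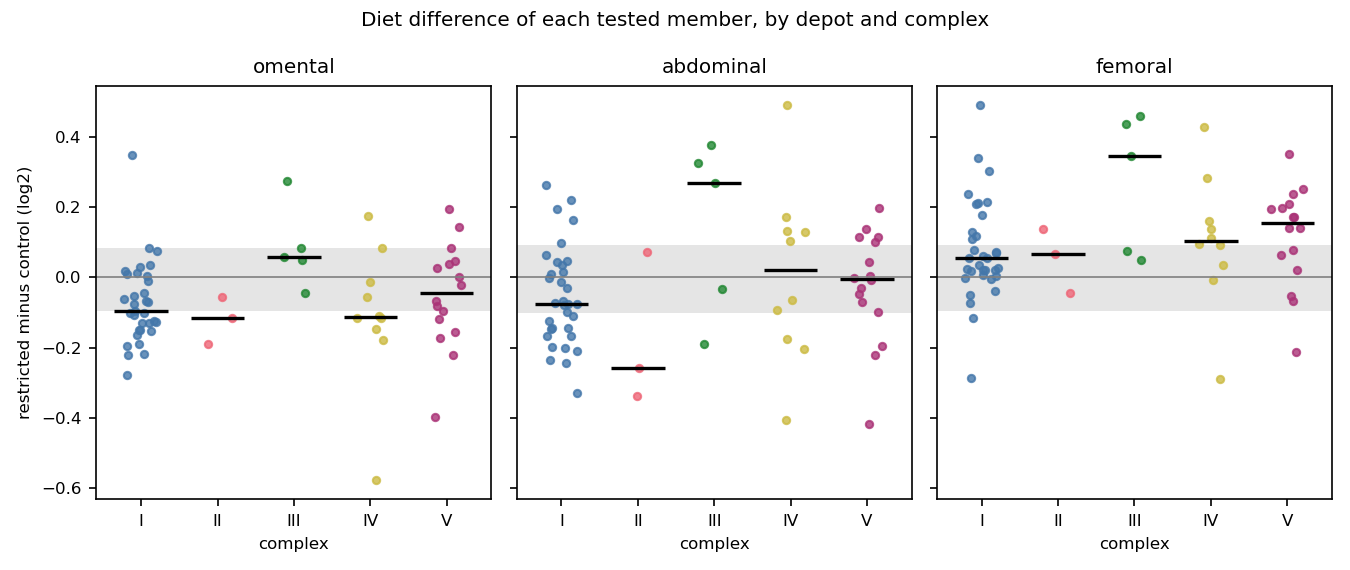
Difference between restricted and control fetuses (log2, 4 against 4 arrays) for each tested member, by complex, in omental, abdominal and femoral cells; each dot is 1 member, the black line is the median of the complex, and the grey band spans the 25th to the 75th percentile of all tested probes. All 5 complex III members lie above 0 in femoral cells with a median of 0.345, which is the value of UQCRH on 1 probe. The 33 complex I members have a median of -0.0962 in omental cells and 0.0549 in femoral cells.

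By complex, complex III held the highest median difference in each depot. It was 0.0581 in omental cells (4 of 5 higher), 0.269 in abdominal cells (3 of 5) and 0.345 in femoral cells (5 of 5), and 0.224 over fetus means. Each of these medians is the value of UQCRH on its chosen probe. A second UQCRH probe gave -0.18, -0.09, 0.14 and -0.04 in the same order. UQCRBP1 and UQCRHL among the 5 are copies, uncertain as to gene. Complex I went from 9 of 33 higher in omental cells and 11 of 33 in abdominal cells to 26 of 33 in femoral cells, with medians of -0.0962, -0.0769 and 0.0549. Within complex I, all 7 assembly factors were lower in abdominal cells of restricted fetuses, with a median of -0.146. In femoral cells 4 of 4 core subunits, 18 of 22 accessory subunits and 4 of 7 assembly factors were higher. Complex II had 0, 1 and 2 of its 3 members higher in omental, abdominal and femoral cells. Complex IV had 2, 5 and 8 of 10 higher, and complex V had 7, 7 and 13 of 16. ATP5MK, which passed the detection filter only through restricted fetuses, is among the 13.

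In complex III, UQCR10, a small subunit of the cytochrome bc1 complex, had the smallest diet p of all members in each of the 4 diet tests. In omental cells it read 8.05, 8.06, 8.03 and 8.09 in the fetuses control_9017, control_9087, control_8011 and control_8009, and 8.18, 8.26, 8.46 and 8.42 in the fetuses restricted_9085, restricted_2820, restricted_9075 and restricted_9073; values below keep this order of fetuses. In abdominal cells it read 7.65, 8.04, 7.96 and 7.82 in controls and 8.19, 8.09, 8.45 and 8.24 in restricted fetuses. In femoral cells it read 7.66, 7.78, 7.91 and 7.98 in controls and 8.19, 8.19, 8.42 and 8.29 in restricted fetuses. In each of the 3 depots the 4 restricted values lay above the 4 control values, which no other member showed in omental cells. The difference was 0.27 ± 0.09 (SE) in omental cells (adjusted p 0.981, limma), 0.38 ± 0.12 in abdominal cells (0.955) and 0.44 ± 0.10 in femoral cells (0.588). Over fetus means it was 0.36 ± 0.08 with an adjusted p of 0.618. When the 24 arrays were fitted together with a random effect of fetus, that adjusted p became 0.02, where 0.13% of all probes passed, and with no block it was 0.00263, where 0.939% passed. The 2 other UQCR10 probes differed by 0.07 and 0.02 over fetus means, and in femoral cells by 0.16 and -0.01, so the separation rests on 1 of 3 probes.

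UQCRH, the hinge protein that helps cytochrome c1 dock with cytochrome c, read 9.22, 9.65, 9.74 and 9.83 in femoral cells of controls and 9.84, 9.97, 10.01 and 10.01 in restricted fetuses. The groups did not overlap, although fetus control_8009 lay just under fetus restricted_9085, and the lowest value belonged to fetus control_9017. The difference was 0.35 ± 0.13 in femoral cells (adjusted p 0.78), 0.27 ± 0.14 in abdominal cells and 0.06 ± 0.13 in omental cells. A second UQCRH probe gave 0.14, -0.09 and -0.18 in the same order, so in omental and abdominal cells the 2 probes pointed opposite ways. The UQCRBP1 probe read 10.39, 10.90, 10.72 and 10.72 in abdominal controls and 10.97, 10.95, 11.01 and 11.11 in abdominal restricted cells, again without overlap. Its difference was 0.33 ± 0.12 in abdominal cells, 0.46 ± 0.17 in femoral cells (adjusted p 0.78) and 0.08 ± 0.17 in omental cells. The core protein UQCRC1 differed by 0.05, -0.19 and 0.07 in omental, abdominal and femoral cells, and the copy UQCRHL by -0.04, -0.03 and 0.05, so these 2 members lay close to 0 in femoral cells.

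In complex I, NDUFV2, an iron-sulphur subunit of the NADH-oxidising head, read 10.82, 10.23, 10.13 and 10.34 in femoral control cells and 10.96, 10.95, 10.87 and 10.71 in femoral restricted cells. Only fetus control_9017 overlapped the restricted arrays. In omental cells the controls read 11.26, 10.36, 10.44 and 10.41 and the restricted fetuses 10.97, 10.91, 10.99 and 10.99. In abdominal cells the controls read 11.36, 10.33, 10.47 and 10.22 and the restricted fetuses 10.75, 10.80, 10.88 and 10.99. Fetus control_9017 was thus above all other controls in all 3 depots, and above all 4 restricted fetuses in omental and abdominal cells. The diet difference was 0.49 ± 0.15 in femoral cells (adjusted p 0.73), 0.35 ± 0.19 in omental cells, 0.26 ± 0.23 in abdominal cells and 0.37 ± 0.18 over fetus means (0.816). Without fetus control_9017 the difference over fetus means was 0.57 and its adjusted p 0.0414, so the call turned on this 1 fetus.

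NDUFA3, an accessory subunit, read 9.31, 9.49, 9.61 and 9.53 in femoral control cells and 9.63, 9.74, 9.96 and 9.97 in femoral restricted cells, without overlap. Its difference was 0.34 ± 0.11 in femoral cells (adjusted p 0.757), 0.22 in abdominal cells, 0.07 in omental cells and 0.21 ± 0.12 over fetus means. NDUFB5, a subunit of the membrane arm, differed by -0.19, -0.11 and 0.13 in omental, abdominal and femoral cells, with SDs of 0.12 to 0.29 within groups. The smallest complex I p in abdominal cells belonged to NDUFB10 (-0.24 ± 0.13) and to NDUFV1, the NADH-binding flavin subunit (-0.21 ± 0.11), both at an adjusted p of 0.955. NDUFB10 was detected on 4 abdominal control and 2 abdominal restricted arrays, so its restricted values are partly background. In omental cells the assembly factor NDUFAF4 differed by -0.28 ± 0.15 (0.981). NDUFB1 read 4.67, 4.78 and 4.71 in fetus control_8011 and 4.61, 4.64 and 4.57 in fetus restricted_2820, while the other 6 fetuses lay between 5.19 and 5.95. These 2 fetuses were at or near background for NDUFB1. Its diet differences of -0.13, -0.15 and -0.05 were small beside that split, which held 1 fetus of each diet. NDUFAF6 differed by -0.13, -0.33 and 0 in omental, abdominal and femoral cells.

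In complex IV, COX7A1 read 6.84, 6.80, 6.97 and 6.94 in femoral control cells and 7.49, 7.51, 7.06 and 7.19 in femoral restricted cells. In abdominal cells it read 6.55, 6.89, 7.04 and 6.96 in controls and 7.22, 7.80, 7.08 and 7.31 in restricted fetuses. Neither subcutaneous depot showed any overlap between diets. In omental cells the controls read 7.42, 7.06, 7.33 and 7.39 and the restricted fetuses 7.32, 7.44, 7.46 and 7.31, and the groups overlapped. The differences were 0.43 ± 0.12 in femoral cells (adjusted p 0.677), 0.49 ± 0.17 in abdominal cells (0.955) and 0.08 ± 0.10 in omental cells. Over fetus means the difference was 0.33 ± 0.09 (0.783), and in the fit of all 24 arrays with no block its adjusted p was 0.045, a fit that treats arrays of 1 fetus as independent.

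COX6B1 gave the most negative difference of all members in omental cells, -0.58 ± 0.40, with -0.41 ± 0.32 in abdominal and -0.29 ± 0.32 in femoral cells. In omental cells it read 10.72, 10.19, 10.45 and 10.50 in controls and 10.13, 8.48, 10.46 and 10.49 in restricted fetuses, so the difference came mostly from fetus restricted_2820. Without that fetus the omental difference was -0.11. COX7B, a small subunit of the same enzyme, differed by -0.18 in omental, 0.13 in abdominal and 0.28 ± 0.14 in femoral cells (adjusted p 0.805). COX5B, which binds zinc, differed by -0.12, -0.20 and 0.09, within SDs of 0.14 to 0.25. COX5A, a partner of COX4 in the enzyme, was lower in all 4 abdominal restricted arrays than in the 4 controls (-0.18 ± 0.11, adjusted p 0.955), and COX7C differed by -0.15 ± 0.12 in omental cells. The ubiquitous isoforms COX4I1 (-0.01, -0.09 and 0.03) and COX6A1 (-0.06, -0.06 and 0.09) lay near 0 in omental, abdominal and femoral cells. COX4I2 differed by 0.14 ± 0.11 over fetus means from values mostly at background.

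In complex V, ATP5ME, the membrane subunit e that takes part in pairing of ATP synthase, was the one member lower in restricted fetuses at an unadjusted p under 0.05 over fetus means. In abdominal cells it read 5.67, 5.80, 6.10 and 5.69 in controls and 5.23, 5.28, 5.45 and 5.64 in restricted fetuses, without overlap. In omental cells it read 6.27, 5.77, 5.87 and 5.82 in controls and 5.93, 5.18, 5.41 and 5.63 in restricted fetuses. In femoral cells it read 5.57, 5.57, 5.75 and 5.71 in controls and 5.69, 5.28, 5.26 and 5.53 in restricted fetuses. In both of these depots fetus restricted_9085 reached into the control range. The differences were -0.42 ± 0.13 in abdominal (adjusted p 0.955), -0.40 ± 0.17 in omental (0.981) and -0.21 ± 0.11 in femoral cells (0.827), and -0.34 ± 0.10 over fetus means (0.783), where the groups did not overlap. ATP5ME was therefore lower in femoral cells too, against the direction of 13 of 16 complex V members. Only 1 of 3 ATP5ME probes passed the detection filter, at a mean level of 5.63, so no second probe could be compared.

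Of the other complex V members, ATP5PB of the peripheral stalk differed by -0.22 ± 0.11 in omental and in abdominal cells. In femoral cells the membrane subunit ATP5MG differed by 0.25 ± 0.12 and the inhibitor ATP5IF1 by 0.19 ± 0.10, both at an adjusted p of 0.805. ATP5IF1 also differed by 0.18 ± 0.08 over fetus means (0.804). The c-ring gene ATP5MC1 differed by -0.16, 0.11 and 0.35 ± 0.23 in omental, abdominal and femoral cells. ATP5MC2, which encodes the same mature c subunit, differed by -0.17, -0.03 and -0.05 on its chosen probe and by 0.06, 0.46 and 0.27 on a second one, so its direction depended on the probe.

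The 3 tested members of complex II, succinate dehydrogenase, gave no unadjusted p under 0.05 in any depot or over fetus means. SDHA, the flavin subunit, differed by -0.12, -0.26 ± 0.14 and -0.05 in omental, abdominal and femoral cells and by -0.14 ± 0.08 over fetus means. A second SDHA probe gave 0.16, -0.13, 0.04 and 0.02 in the same order, so the probes pointed opposite ways except in abdominal cells. SDHD, a membrane anchor, read 5.54, 5.30, 5.41 and 4.74 in abdominal controls and 4.84, 4.79, 4.96 and 5.04 in abdominal restricted cells. Fetus control_8009 lay below all 4 restricted arrays while the other 3 controls lay above them. The difference was -0.34 ± 0.17 in abdominal cells (adjusted p 0.955), -0.19 in omental cells and 0.07 ± 0.08 in femoral cells. SDHC, the other anchor, differed by 0.14 ± 0.13 in femoral cells.

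**Figure D3:**
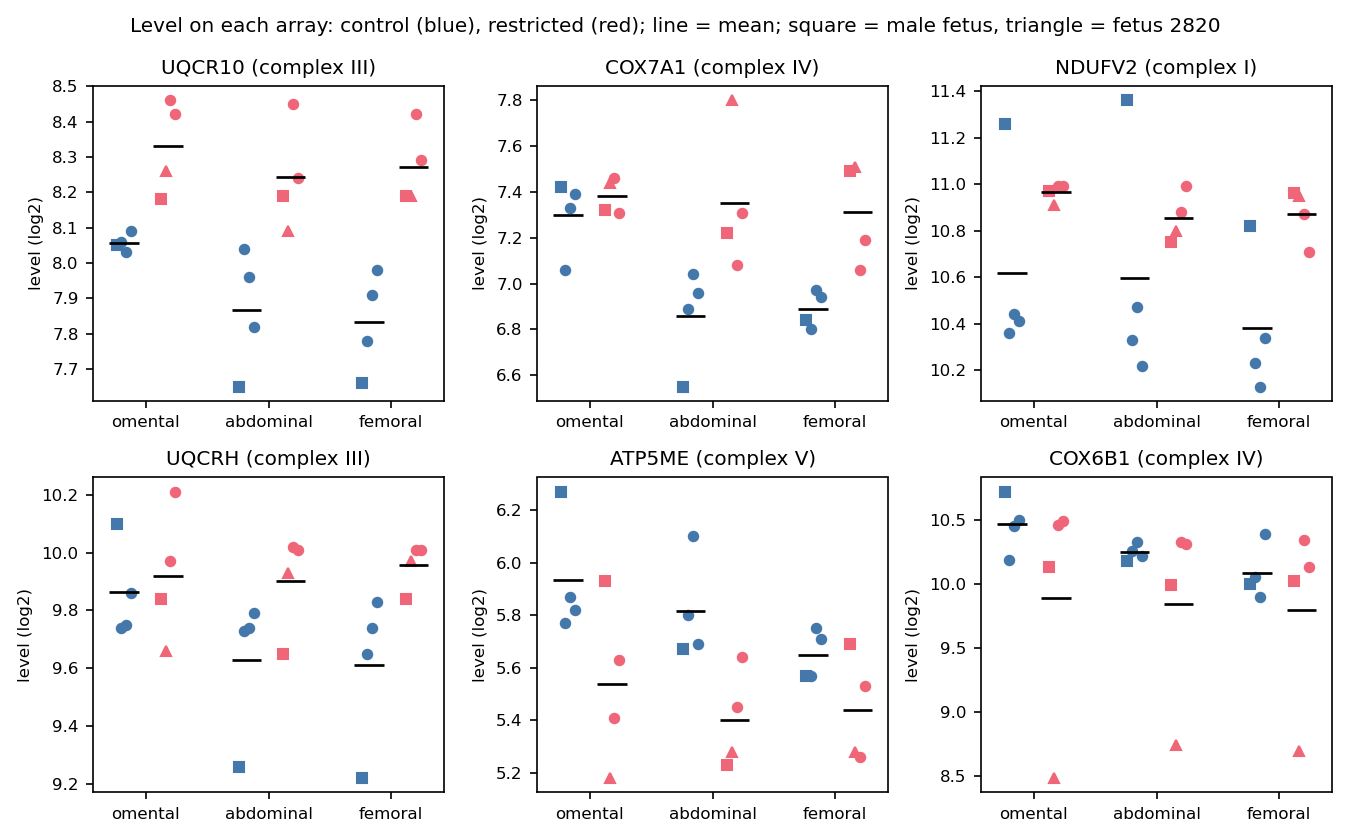
Level (log2 normalised intensity) of UQCR10, COX7A1, NDUFV2, UQCRH, ATP5ME and COX6B1 on each of the 24 arrays by depot, with control fetuses in blue and restricted fetuses in red; each line is a group mean (n = 4), squares mark male fetuses and triangles fetus restricted_2820. UQCR10 separates the diets in all 3 depots, NDUFV2 does so except for the male control fetus, and the COX6B1 difference sits in fetus restricted_2820, at 8.48 to 8.74.

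Over both diets, omental minus femoral was above 0 for 54 of 67 members, with a median of 0.0798, against 51.3% of all probes. The member median varied between arrays of 1 group with an SD of 0.0932. That SD is of single arrays and leaves out the pairing by fetus, so it is not the error of the median of 0.0798. Of the members 3 passed an adjusted p of 0.05, 2 higher and 1 lower, where 10.9% of all probes passed (5.33% higher and 5.6% lower). NDUFA3 and ATP5MF rose in omental cells and NDUFS8 fell. At an unadjusted p under 0.05 the members numbered 14 higher and 1 lower, against 11.3% and 10.8% of all probes.

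NDUFA3 had a mean of 9.97 ± 0.20 (SD, n = 8) in omental and 9.66 ± 0.23 in femoral cells, and was higher in omental cells of 7 of 8 fetuses. Its difference was 0.31 ± 0.09 (SE), with an adjusted p of 0.0417. ATP5MF, the membrane subunit f of ATP synthase, had a mean of 11.12 ± 0.12 in omental and 10.90 ± 0.13 in femoral cells and was higher in omental cells of 8 of 8 fetuses. Its difference was 0.22 ± 0.07 (adjusted p 0.0466), and a second ATP5MF probe gave 0.23. NDUFS8, an iron-sulphur subunit near the quinone site of complex I, had a mean of 10.27 ± 0.12 in omental and 10.55 ± 0.19 in femoral cells. It was higher in omental cells of 2 of 8 fetuses, and its difference was -0.28 ± 0.08 (adjusted p 0.0388). In omental cells NDUFS8 read 10.11, 10.34, 10.27 and 10.31 in controls and 10.21, 10.51, 10.24 and 10.17 in restricted fetuses. In femoral cells it read 10.82, 10.29, 10.61 and 10.44 in controls and 10.81, 10.43, 10.39 and 10.62 in restricted fetuses, and the 2 fetuses that went the other way were control_9087 and restricted_2820.

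These calls were close to the threshold. No member passed when fetus control_9017, control_8011, control_8009 or restricted_9073 was left out, where 8.71%, 8%, 7.74% and 8.36% of all probes passed. There was 1 without restricted_9085 (8.23% of all probes) and 1 without control_9087 (8.52%), 4 without restricted_9075 (10.9%) and 6 without restricted_2820 (12.9%). With the fetus as a block 8 members passed, among 15.6% of all probes. They were NDUFA3 (adjusted p 0.015), NDUFA8 (0.23, adjusted p 0.0275), ATP5MF (0.0321), ATP5MG (0.26, 0.0351), ATP5IF1 (0.19, 0.0386), the assembly factors NDUFAF7 (0.20, 0.0396) and NDUFAF6 (-0.22, 0.0428), and NDUFB6 (0.25, 0.0477), while NDUFS8 had 0.0589. Markers of other cells differed in this comparison too. The mesothelial markers CALB2, WT1, KRT19 and LRRN4 were higher in omental than femoral cells by 3.0, 1.89, 1.75 and 0.76 and passed the test. The mean of the endothelial markers, of which 5 of 6 were detected, lay at 4.61 to 4.9 in omental and 5.47 to 5.9 in femoral cells of controls. In restricted fetuses it lay at 4.73 to 5.39 and 5.61 to 6.1. The mean of the skeletal muscle markers lay at 7.83 to 9.24 and 7.09 to 7.33 in controls and at 7.25 to 8.63 and 6.67 to 7.78 in restricted fetuses. The part of all 3 lists in the members' differences was not tested.

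**Figure D4:**
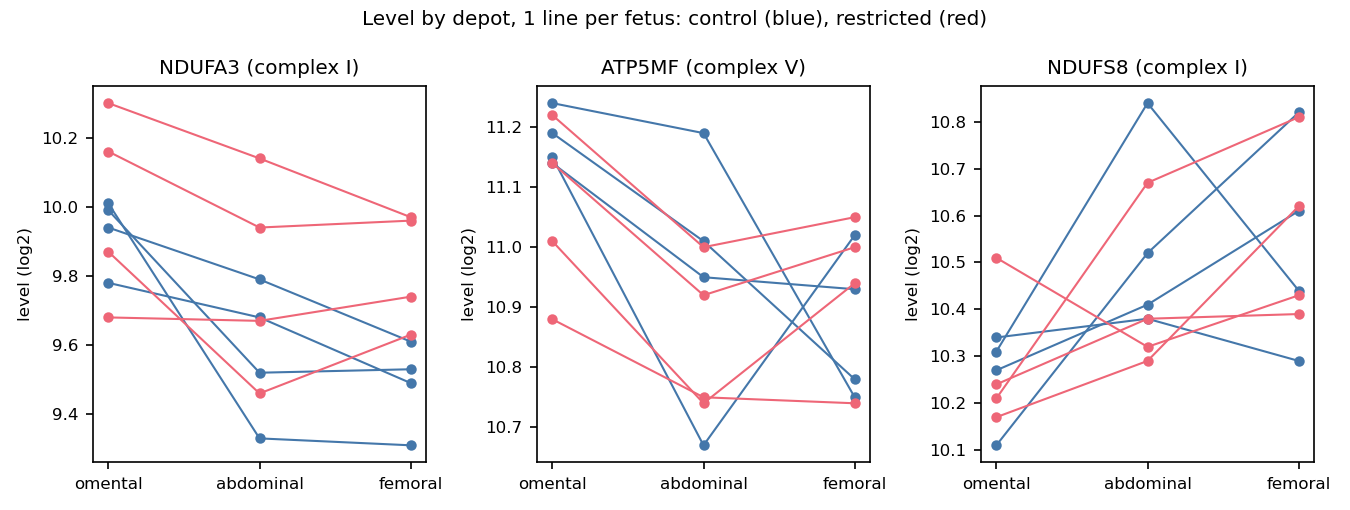
Level (log2 normalised intensity) of NDUFA3, ATP5MF and NDUFS8 in omental, abdominal and femoral cells, with 1 line per fetus, blue for control and red for restricted. NDUFA3 and ATP5MF are higher in omental than in abdominal cells of 8 of 8 fetuses, and NDUFS8 is higher in omental than in femoral cells of 2 of 8.

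Below the threshold, COX7B differed between omental and femoral cells by 0.34 ± 0.14 (adjusted p 0.134), COX7A1 by 0.24 ± 0.09 (0.0864) and ATP5F1B, the catalytic beta subunit, by 0.19 ± 0.06 (0.0684). UQCR10 differed by 0.14 ± 0.06 and UQCRBP1 by 0.22 ± 0.13, and SDHA and SDHC by 0.07 each. COX7B had the largest absolute difference between depots among the members. Over the 24 arrays, which share fetuses, its pattern was most like those of NDUFB3 (r = 0.95), NDUFA1 (0.903) and NDUFA3 (0.861), as a description. Over all 2211 pairs of members the median r was 0.23, and it was 0.222 for the 706 pairs within a complex and 0.233 for the 1505 pairs between complexes. The median was thus no higher within complexes than between them. Within complexes the median r was 0.374 for complex III, 0.347 for IV, 0.295 for V, 0.205 for I and 0.0761 for II.

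Omental minus abdominal was above 0 for 53 of 67 members, against 50.5% of all probes, with a median of 0.0742, and 0 members passed, where 4.62% of all probes did. At an unadjusted p under 0.05 there were 6 higher and 1 lower, against 8.75% and 8.42% of all probes. ATP5MF differed by 0.22 ± 0.07 (adjusted p 0.118) and NDUFA3 by 0.28 ± 0.11 (0.191), each higher in 8 of 8 fetuses. With the fetus as a block both passed, at 0.0353 and 0.0463, among 9.62% of all probes. ATP5F1B differed by 0.18 ± 0.07 and was higher in 8 of 8 fetuses, and NDUFS8 differed by -0.21 ± 0.08 and was higher in 1 of 8. COX7A1 differed by 0.24 ± 0.11 and UQCR10 by 0.14 ± 0.07, each higher in 7 of 8 fetuses, and COX7B by 0.28 ± 0.15.

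The 2 subcutaneous depots were close to each other. Abdominal minus femoral was above 0 for 43 of 67 members, against 50.9% of all probes, with a median of 0.0102, and 0 members passed, where 0.0768% of all probes did (0.177% with the fetus as a block). The sign of that median turned when fetus control_9087 (-0.00959) or control_8011 (-0.00484) was left out, and under median scaling (-0.00254). COX4I2 alone had an unadjusted p under 0.05, where 2.06% of all probes were higher and 2.13% lower at that p, with a difference of -0.22 ± 0.10 (adjusted p 1), from values detected on 5 of 24 arrays. NDUFA7 was higher in abdominal cells of 8 of 8 fetuses, by 0.12 ± 0.07, while NDUFA13 differed by -0.09, ATP5MC1 by 0.12 and SDHD by 0.07. SDHA and UQCRC1 differed by 0.00 and 0.02.

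Whether diet acted differently by depot was tested directly as the diet difference in 1 depot minus that in another. No member and no probe (0%) passed an adjusted p of 0.05 in any of the 3 tests, with or without the fetus as a block, by limma. The omental diet difference was above the femoral one for 5 of 67 members, with a median of -0.149, against 49.1% of all probes and a median of -0.00361. The abdominal diet difference was above the femoral one for 7 of 67 members, with a median of -0.129, against 49.1% and -0.00342. These 2 counts share the femoral arrays. The member median varied between arrays of 1 group with an SD of 0.0932 over omental and femoral cells and 0.0914 over abdominal and femoral cells. These SDs are of single arrays without the pairing by fetus, so they are not the error of the 2 medians. The omental diet difference was above the abdominal one for 29 of 67 members (50% of all probes), with a median of -0.0288. That median turned to 0.018 without fetus control_9017 and to 0.00736 without fetus control_8009.

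At an unadjusted p under 0.05, COX7A1 alone differed between omental and femoral cells (-0.35 ± 0.15, unadjusted p 0.0398, adjusted p 1), where 2.32% of all probes did. SDHD alone differed between abdominal and femoral cells (-0.40 ± 0.19, unadjusted p 0.0491, adjusted p 1), where 1.9% did. Between omental and abdominal cells 0 members did, where 1.95% of all probes did, and COX7A1 (-0.41 ± 0.20) and COX6C (-0.25 ± 0.13) came nearest. Of the 2 members per complex with the smallest p between omental and femoral cells, the others were COX7B (-0.46 ± 0.25), NDUFAF4 (-0.39 ± 0.21), UQCRBP1 (-0.38 ± 0.25), NDUFB5 (-0.32 ± 0.18), UQCRH (-0.29 ± 0.19), SDHD (-0.26), ATP5PB (-0.24), ATP5F1EP2 (-0.22) and SDHC (-0.19). Between abdominal and femoral cells they were NDUFAB1 (-0.35), COX5B (-0.30), NDUFAF1 (-0.26), UQCRC1 (-0.26), ATP5PB (-0.24), SDHA (-0.21), ATP5MK (-0.18), COX6A1 (-0.16) and UQCRBP1 (-0.13). In both lists every value was negative. ATP5MK passed the detection filter only through restricted fetuses, on 3 femoral arrays and 1 omental array. Between omental and abdominal cells the signs were mixed, with NDUFV1 (0.23), UQCRC1 (0.24), SDHA (0.14) and SDHD (0.15) above 0 and NDUFB3 (-0.30), UQCRBP1 (-0.24), ATP5F1C (-0.18) and ATP5MC2 (-0.14) below it.

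The same data can be read as depot differences within each diet. In control fetuses 58 of 67 members had a mean omental level above the femoral one, with a median of 0.164, and 28 were higher in all 4 fetuses, where 14.3% of all probes were. In restricted fetuses 35 of 67 were above, with a median of 0.0085, and 7 were higher in all 4, where 11.8% of all probes were. Per fetus, the median over members was 0.26, 0.15, 0.12 and 0.12 in controls and -0.02, -0.03, -0.01 and 0.09 in restricted fetuses, so the highest restricted fetus, restricted_9073, lay below the lowest control. COX7A1 went from 0.42 ± 0.14 (SD, n = 4) in controls to 0.07 ± 0.25 in restricted fetuses. COX7B went from 0.57 ± 0.40 to 0.11 ± 0.35, NDUFA3 from 0.44 ± 0.19 to 0.18 ± 0.17, and ATP5MF from 0.31 ± 0.16 to 0.13 ± 0.05. NDUFS8 was -0.28 in both, with SDs of 0.32 and 0.30.

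Abdominal minus femoral was above 0 for 58 of 67 members in control fetuses, with a median of 0.0838, and for 17 of 67 in restricted fetuses, with a median of -0.0376. Members higher in all 4 fetuses numbered 5 in controls, where 7.74% of all probes were, and 1 in restricted fetuses, where 5.97% were. Omental minus abdominal was above 0 for 50 of 67 members in controls and 51 of 67 in restricted fetuses, with medians of 0.092 and 0.059. Per fetus, the median over members of abdominal minus femoral was -0.01 to 0.19 in controls and -0.15 to 0 in restricted fetuses. That of omental minus abdominal was -0.02 to 0.28 and 0.01 to 0.10, so the diets overlapped in both comparisons. No single member passed the test of the difference between diets.

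**Figure D5:**
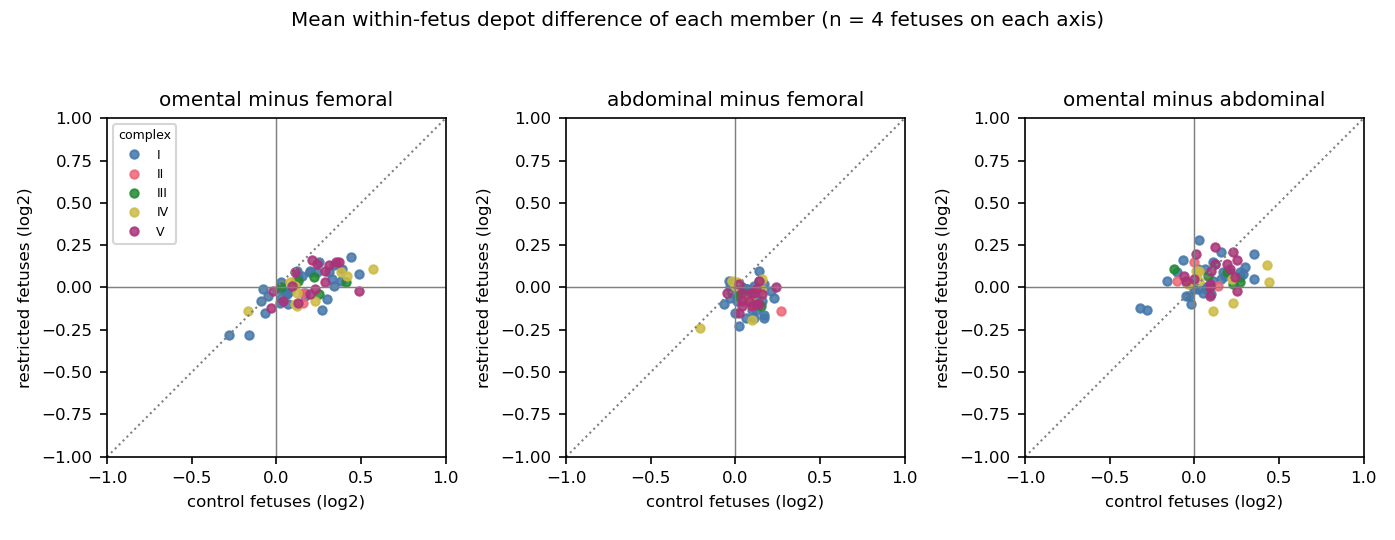
Mean difference between 2 depots within a fetus (log2) for each of the 67 tested members, in control fetuses (horizontal axis, n = 4) and restricted fetuses (vertical axis, n = 4), coloured by complex, with 1 panel per pair of depots and a dotted line at equality. In the panels against femoral cells most members lie to the right of 0 and below the line: 58 of 67 are above 0 in controls and 35 (omental) or 17 (abdominal) of 67 in restricted fetuses.

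Other genes of mitochondrial respiration gave no diet call in any depot, where the share of all probes was 0%. In femoral cells 11 of 15 genes of the citrate cycle, 7 of 13 mobile carriers and transporters, 10 of 16 assembly factors of complex IV, 10 of 15 genes of the mitochondrial membranes and import, and 5 of 15 nuclear regulators were higher in restricted fetuses. In omental cells the counts in the same order were 4 of 15, 7 of 13, 5 of 16, 3 of 15 and 6 of 15, and in abdominal cells 3 of 15, 6 of 13, 4 of 16, 5 of 15 and 4 of 15. GABPA, the DNA-binding subunit of an ETS factor known to activate respiratory genes, was singled out after its values were seen. It differed by -0.08 in omental, -0.35 ± 0.12 in abdominal and -0.50 ± 0.09 in femoral cells (adjusted p 0.524), where all 4 restricted arrays lay below the 4 controls. Whether the level of GABPA bears on that of the members was not tested.

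Between depots some of these genes passed the test. Of all probes, 4.62% passed in omental minus abdominal and 10.9% in omental minus femoral. The genes below are named because they passed, so they do not describe their lists as a whole. CYCS, which encodes cytochrome c, was higher in omental cells by 0.58 against abdominal (adjusted p 0.0344) and 0.56 against femoral cells (0.00872). TFB1M, a mitochondrial ribosomal RNA methyltransferase, was higher by 0.42 (0.0276) and 0.48 (0.00315). EPAS1, the hypoxia-responsive factor HIF-2 alpha, was lower in omental cells, with differences of -1.07 (0.00546) and -1.33 (0.000109). The complex III assembly factor UQCC1 (0.27, adjusted p 0.0258) and PDHB of pyruvate dehydrogenase (0.39, 0.0125) were higher in omental than abdominal cells. Against femoral cells the ADP/ATP carrier SLC25A4 was higher (0.34, 0.0135) and NUBPL, an iron-sulphur assembly factor of complex I, was lower (-0.19, 0.0323).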

How the data were processed

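RNA of cultured cells was read on 24 Illumina bead arrays. Per the file headers, the deposited scanner table gives each array's mean bead intensity, with a background subtracted so that values can be negative, and a detection p-value per probe. A second table holds the authors' normalised intensity, whose method is not given in the sources used here; its ranks were identical to those of the scanner table on each array. Scanner columns were matched to samples by fetus number and depot letter. Of 48803 probes 28098 had 1 gene symbol in the platform annotation, 13 had several and 20692 had none.

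The deposited intensities were background-modelled and quantile-normalised to log2 values with neqc (offset 16) in limma 3.58.1 (R 4.3.3, statmod 1.5.0), and probes at a detection p under 0.05 on at least 4 arrays were fitted with lmFit and eBayes; the members' rule was then applied. Diet was tested within each depot (4 against 4 arrays) and over the means of each fetus. Depots were tested with diet as a covariate, and diet by depot as an interaction. Tests were two-sided, with Benjamini-Hochberg adjustment over all 16933 probes and a threshold of 0.05. The p-values of these diet tests measure the spread between fetuses. The depot and interaction fits without a block count arrays of 1 fetus as independent, so their p-values mix the spread between and within fetuses. With the fetus as a block they measure the spread of differences within fetuses. Arrays of 1 fetus come from the same animal and are paired; in all 24 pairs of depots the deviation of an array correlated best with its own fetus (0.28 to 0.673). Depot and interaction fits were repeated with the fetus as a block. A single fit of all 24 arrays with the fetus as a random block had a correlation of 0.254. Fits were tested on simulated data, with arrays drawn independently, no fetus effect and planted differences of at least 1 log2 unit. That setting does not cover the pairing or differences as small as those of the members. Differences are log2, with SE, and levels are given with SD; the number of arrays limits their precision. Figures were drawn with matplotlib 3.10.9.

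The members, the related gene lists and the tests were chosen with earlier results of these data known. Genes named are members past the threshold, the 2 members per complex with the smallest p in each comparison, NDUFV2, UQCRH, COX7B, NDUFB5, SDHD and COX5B, the 6 members with the largest SD, isoform pairs, members whose probes disagree, and related genes past the threshold. GABPA was named outside these rules, after its values were seen. Probes of 16 genes could be compared; in 47 cases of 1 gene in 1 comparison they pointed opposite ways. NDUFA4, NDUFA4L2 and COX7A2L, and sequences of probes and promoters, were not analysed here.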

Additional observations from a re-analysis of the deposited data

Results flagged for a closer look

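Within groups of 4 arrays, the highest or lowest array stood apart from the other 3 by Dixon's criterion in 18 of 294 groups over 49 named genes, where chance gives about 1 in 20. Fetus control_9017 supplied 6 of the 18, fetus restricted_2820 5, fetus restricted_9085 3, fetus control_8009 2, and fetuses control_8011 and restricted_9073 1 each.

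In fetus control_9017, the high values were NDUFV2 in omental cells at 11.26 (others 10.36 to 10.44) and SDHD in omental cells at 5.59 (4.94 to 5.04). Its low values all lay in subcutaneous cells: ATP5PB at 11.68 (11.81 to 11.84) and ATP5PD at 12.42 (12.72 to 12.77) in femoral cells, and NDUFAF4 at 6.27 (6.68 to 6.71) and UQCRH at 9.26 (9.73 to 9.79) in abdominal cells.

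In fetus restricted_2820, omental cells stood high for ATP5MC2 at 12.06 (11.85 to 11.88), COX4I2 at 5.27 (4.45 to 4.54) and NDUFB10 at 5.07 (4.74 to 4.79). COX4I2 and NDUFB10 were each detected on only 1 omental restricted array, so the values they are set against are mostly background. Abdominal cells of fetus restricted_2820 were low for NDUFB5 at 7.74 (8.26 to 8.34), and its femoral cells for COX5A at 11.5 (11.84 to 11.88). In the abdominal cells of fetus restricted_9085 the values were low for ATP5IF1 at 10.29 (10.70 to 10.76), NDUFAF1 at 7.37 (7.58 to 7.62) and NDUFAF4 at 6.19 (6.49 to 6.51).

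Omental cells of fetus control_8009 were high for ATP5F1D at 10.86 (10.63 to 10.65) and low for ATP5F1EP2 at 13.31 (13.49 to 13.51). Femoral cells of fetus control_8011 were low for NDUFB1 at 4.71 (5.38 to 5.51), and abdominal cells of fetus restricted_9073 were high for ATP5F1C at 5.90 (5.65 to 5.66).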

How the results depend on the processing

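Scaling each array by its median in place of quantile normalisation moved the members' median diet difference in omental cells to -0.201, where all probes had -0.0689, and their median omental against femoral interaction to -0.244; it also turned UQCRC1 in omental cells to -0.10. Members past the threshold in omental minus femoral numbered 1 with no background model (8.53% of all probes), 1 with the authors' normalised values (8.55%), 1 with median scaling (9.78%) and 0 with no filter on dim probes (2.78%). Averaging all probes of a gene turned the SDHA diet difference in omental cells to 0.02.

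The pairing of arrays by fetus was entered as a block. It called 8 members in omental minus femoral (15.6% of all probes) and 2 in omental minus abdominal (9.62%), and changed no other member's call in the depot comparisons or interactions except that of NDUFS8 (adjusted p 0.0589). Over fetus means, all 24 arrays with the fetus as a random block called 1 member (UQCR10; 0.13% of all probes) and with no block 2 (UQCR10 and COX7A1; 0.939%).

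Leaving out 1 fetus at a time gave 0 to 1 members called over fetus means (1 without control_9017, with 0.0177% of all probes) and 0 to 6 in omental minus femoral (7.74% to 12.9% of all probes). In abdominal minus femoral it moved SDHD between -0.01 and 0.12, SDHA between -0.03 and 0.06 and UQCRC1 between -0.02 and 0.06. With 4 fetuses a group and several members near background, differences of the size of the SEs given were not detectable. With sex as a covariate or with female fetuses alone, 0 members were called for diet, and 54 and 50 of 67 were higher in femoral cells. With the 56 structural subunits alone, a choice made after seeing the data, 46 were higher in femoral cells.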
